A study of Mus musculus with 4 samples.

Results

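The genes described here encode the chains of integrins and laminins, and 30 of the 52630 gene identifiers in the table are described. They were found by symbol and not by their values, though the set was chosen with earlier results of these data known. The 12 integrin alpha genes are Itga1 to Itga11 and Itgav, the 8 integrin beta genes are Itgb1 to Itgb8, and the 10 laminin genes encode alpha (Lama), beta (Lamb) and gamma (Lamc) chains. RNA came from AML12 cells, a non-tumour hepatocyte line from a mouse that carries a TGF-alpha transgene, so every library shares that transgene. The cells were infected with lentivirus carrying a hairpin against Topors (shTopors, 2 libraries), which encodes an E3 ligase for ubiquitin and SUMO, or with a control hairpin virus (shCtrl, 2 libraries). Both groups received 200 µl of virus concentrate per well, a medium change at 24 hours and collection on day 5, in medium with 10% serum, insulin-transferrin-selenium and 0.1 µM dexamethasone. Comparing the groups asks how transcript levels in hepatocytes differ when Topors is reduced.

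Integrins are receptors made of an alpha and a beta chain that span the cell membrane, bind matrix outside the cell and couple to the actin or keratin skeleton inside it. Beta 1 pairs with most alpha chains, and the alpha chain largely sets the ligand: laminin, collagen, or proteins with an RGD sequence such as fibronectin and vitronectin. Laminins are secreted trimers of an alpha, a beta and a gamma chain that form the basement membrane sheet on which epithelial cells rest. The normal liver lobule has little laminin along its sinusoids, and laminin surrounds the bile ducts and vessels.

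Levels are TPM, an abundance scaled by transcript length and to a fixed total per library, so chains can be set beside each other per length. The number of reads behind a value is unknown, and no counting interval could be given. Topors was listed at 4.31 and 4.65 TPM in shTopors 1 and 2, against 21.9 and 29.2 TPM in shCtrl 1 and 2, so the libraries went with their labels. Its log2 difference was -2.27 (SE 0.29), with an adjusted p = 0.0823 in limma, so the targeted gene itself did not pass the threshold of 0.05. Of 10 hepatocyte markers 6 averaged at least 1 TPM, Trf, Ttr, Alb, Hnf4a, Apoa1 and Serpina1c, and Apoa2, Fgb, Ahsg and Cps1 did not. The hepatocyte markers summed to 1696 and 2303 TPM in shTopors 1 and 2, against 2976 and 4926 TPM in shCtrl 1 and 2. Trf was at 1182 and 1373 TPM in shTopors 1 and 2, against 1556 and 2279 TPM in shCtrl 1 and 2. Ttr was at 195 and 410 TPM, against 1119 and 2168 TPM. Of the 6 markers, these 2 were lower without overlap and 0 were higher. Among all genes averaging at least 1 TPM, 35.2% were lower and 14.6% higher without overlap. Alb, the albumin gene, was at 4.15 and 402 TPM in shTopors 1 and 2, against 118 and 271 TPM in shCtrl 1 and 2. Apoa1 was at 113 and 11.5 TPM in shTopors 1 and 2, against 12.3 and 28.4 TPM in shCtrl 1 and 2. Hnf4a was at 179 and 95.3 TPM in shTopors 1 and 2, against 158 and 156 TPM in shCtrl 1 and 2. Between the knockdown libraries, Apoa1, Hnf4a and Serpina1c were higher in shTopors 1, and Alb, Trf and Ttr were higher in shTopors 2. Of 7 bile duct markers 6 averaged at least 1 TPM, and their sum was 1911 and 1126 TPM in shTopors 1 and 2, against 1013 and 1459 TPM in shCtrl 1 and 2. Krt19, a keratin of bile duct cells, gave most of the shTopors 1 sum, at 1396 and 345 TPM in shTopors 1 and 2, against 341 and 296 TPM in shCtrl 1 and 2. None of the 9 stellate cell, 8 endothelial or 8 leukocyte markers averaged 1 TPM. Each of these lists summed to between 0.0689 TPM and 1.50 TPM in every library, and Lrat, Col3a1, Lum, Cdh5, Tie1, Lyve1, Adgre1, Clec4f and Cd79a were listed at 0. The part of these markers in the results on integrins and laminins was not tested. Nothing in the labels ties the libraries of a group to different cultures, and every p-value here rests on a spread between libraries that could be technical. In such bulk RNA, fewer cells of a kind and less RNA per cell cannot be told apart.

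No integrin or laminin gene passed the threshold, and the 2 knockdown libraries differed at least 2-fold from each other at 11 of the 18 members tested, beside 16.6% of all tested genes. Of the 30 genes, 18 averaged at least 1 TPM and were tested as log2(TPM + 1) with limma over all 13509 such genes. At a Benjamini-Hochberg adjusted p under 0.05 none was called higher or lower, where 0.0074% of all tested genes were called higher and 0.0296% lower. Before adjustment, 1 member had p under 0.05 and was higher in shTopors (Lamb1) and 2 were lower (Lama4 and Itgb5), where 3.98% and 10.7% of all tested genes were. Their median log2 difference, shTopors minus shCtrl, was -0.13 on the log2(TPM + 1) scale, beside -0.18 over all tested genes. The 2 groups did not overlap at 3 members that were higher (Itgb6, Lamb1 and Lamb3) and 5 that were lower (Itgb3, Itgb5, Lama4, Lamb2 and Lamc1). These are 16.7% and 27.8% of the 18, beside 14.6% and 35.2% of all tested genes. After median-of-ratios scaling, which moved the median of all genes by 0.17, the split was 5 higher, with Itga2 and Itgav added, and 3 lower, without Itgb3 and Lamc1, beside 24.5% and 24.0% of all tested genes under that scaling. After quantile normalization, which moved that median by 0.18, it was 4 higher, with Itga2 added, and 4 lower, without Itgb3, beside 24.6% and 22.7% of all tested genes.

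No tested member was 2-fold apart between shCtrl 1 and shCtrl 2, beside 4.94% of all tested genes. A gene at 0 in 1 library of a pair was counted as apart. Without shTopors 2 the fit called 7 members higher (Itga2, Itga3, Itga6, Itgb4, Itgb6, Lamb1 and Lamb3) and 2 lower (Itga1 and Lama4), beside 5.09% and 10.9% of all tested genes. Without shTopors 1 it called 1 higher (Lamb1) and 6 lower (Itga7, Itgb5, Lama4, Lama5, Lamb2 and Lamc1), beside 1.82% and 6.67% of all tested genes. In these fits the lone knockdown library was assumed to vary like shCtrl, and both rest on the same shCtrl libraries. The share of all tested genes called in both fits was not counted, so no reading is given to members named in both. Without shCtrl 1 no member was called, where 0.0074% of all tested genes were called higher and 0.0222% lower, and without shCtrl 2 no gene of any kind was.

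**Figure D1:**
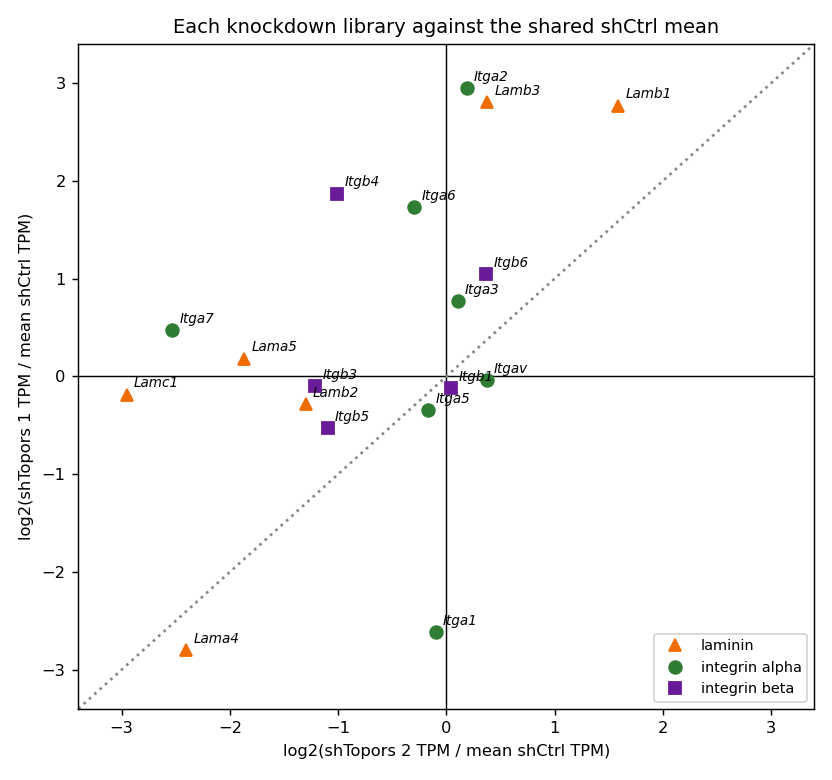
Each point is 1 of the 18 tested integrin and laminin genes, placed by its log2 ratio to the shared shCtrl mean TPM in shTopors 2 (x axis) and in shTopors 1 (y axis), and the dotted line marks equal ratios. Lamb1 lies well above 0 in both libraries and Lama4 well below 0 in both, while Itga2, Lamb3, Itga6, Itgb4 and Itga1 lie far from 0 mainly in shTopors 1 and Lamc1, Lama5 and Itga7 mainly in shTopors 2.

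**Figure D2:**
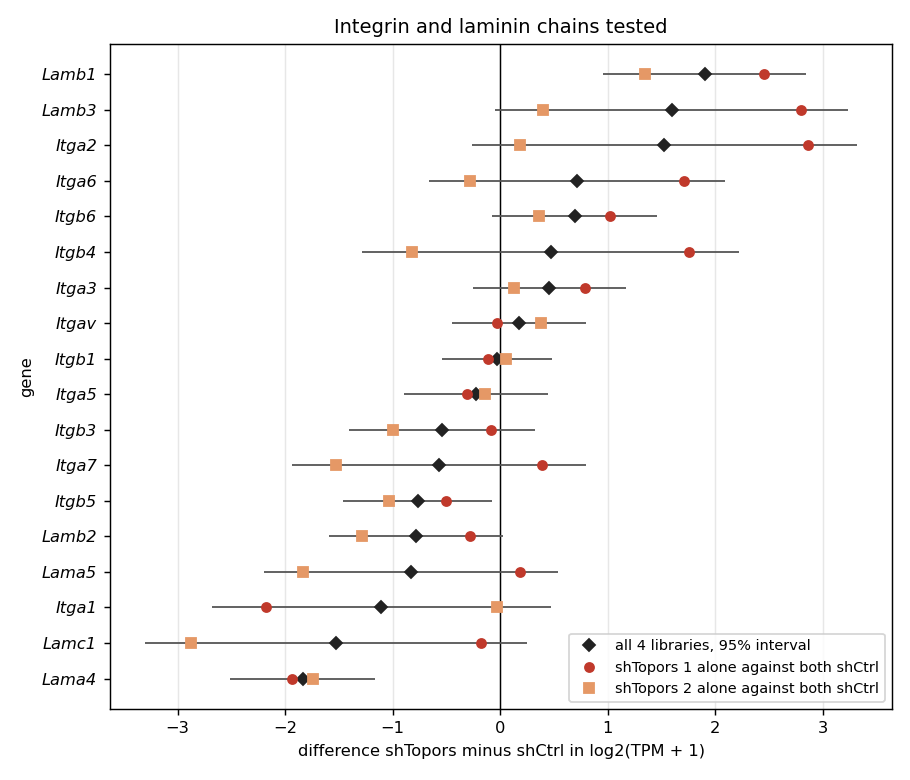
Diamonds give the difference shTopors minus shCtrl in log2(TPM + 1) with its 95% interval from limma for the 18 tested genes, and circles and squares give the same difference with shTopors 1 or shTopors 2 alone. The intervals of Lamb1, Itgb5 and Lama4 do not include 0 before adjustment, and no gene passed after it.

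Integrin beta chains were dominated by Itgb1 in every library. Itgb1 encodes the beta 1 chain shared by most integrins of adherent cells, and it was at 448 and 504 TPM in shTopors 1 and 2, against 540.5 and 436 TPM in shCtrl 1 and 2. The groups overlapped, and its log2 difference was -0.03 (95% interval -0.54 to 0.48, adjusted p = 0.954 in limma), with a positive sign after median-of-ratios scaling (0.16). It made up 83.6% and 92.3% of summed beta chain TPM in shTopors 1 and 2, against 89.9% and 89.0% in shCtrl 1 and 2. The beta sum was 541 ± 7.33 TPM in shTopors and 546 ± 78.8 TPM in shCtrl (SD, n = 2 each; two-sided exact permutation test, p = 1). With 2 libraries against 2, the smallest p this exact test can give is 0.333.

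The beta chains that pair with alpha V differed in direction. Itgb5, whose product binds vitronectin with alpha V, was at 16.3 and 11.0 TPM in shTopors 1 and 2, against 23.5 and 23.4 TPM in shCtrl 1 and 2. Both knockdown libraries lay below both controls, with a log2 difference of -0.77 (95% interval -1.46 to -0.07, adjusted p = 0.306 in limma), which was -0.58 relative to the median of all genes. Itgb6, the partner of alpha V in an epithelial receptor that activates latent TGF-beta, was at 38.4 and 24.0 TPM in shTopors 1 and 2, against 21.4 and 15.9 TPM in shCtrl 1 and 2. Both knockdown libraries lay above both controls, with a log2 difference of 0.69 (95% interval -0.07 to 1.46, adjusted p = 0.380 in limma). Itgb3, another vitronectin receptor chain, was at 6.90 and 3.20 TPM in shTopors 1 and 2, against 6.92 and 7.90 TPM in shCtrl 1 and 2. Its shTopors 1 level nearly equalled that of shCtrl 1, so the groups only just failed to overlap. The 4 alpha V partners Itgb3, Itgb5, Itgb6 and Itgb8 summed to 50.0 ± 16.4 TPM in shTopors and 50.0 ± 2.86 TPM in shCtrl (SD, n = 2 each).

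Itgb4, the hemidesmosome chain that pairs with alpha 6 and links laminin to keratin, separated the knockdown libraries rather than the groups. It was at 25.8 and 3.50 TPM in shTopors 1 and 2, against 8.43 and 5.66 TPM in shCtrl 1 and 2. The shTopors 1 level was the highest of the 4 libraries and the shTopors 2 level the lowest, and the log2 difference was 0.47 (SE 0.75). The remaining beta chains were low in every library. Itgb8 reached at most 0.769 TPM, in shCtrl 2, Itgb2, the chain of leukocyte integrins, was at 0.253 and 0.172 TPM in shTopors 1 and 2, against 0.350 and 0.138 TPM in shCtrl 1 and 2, and Itgb7 was listed at 0 in both shCtrl libraries. Of the integrin chains of leukocytes and platelets, which are not members, Itgad and Itgax were listed at 0 in every library and Itga2b averaged 0.699 ± 0.382 TPM in shTopors and 1.65 ± 0.0948 TPM in shCtrl (SD, n = 2 each).

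**Figure D3:**
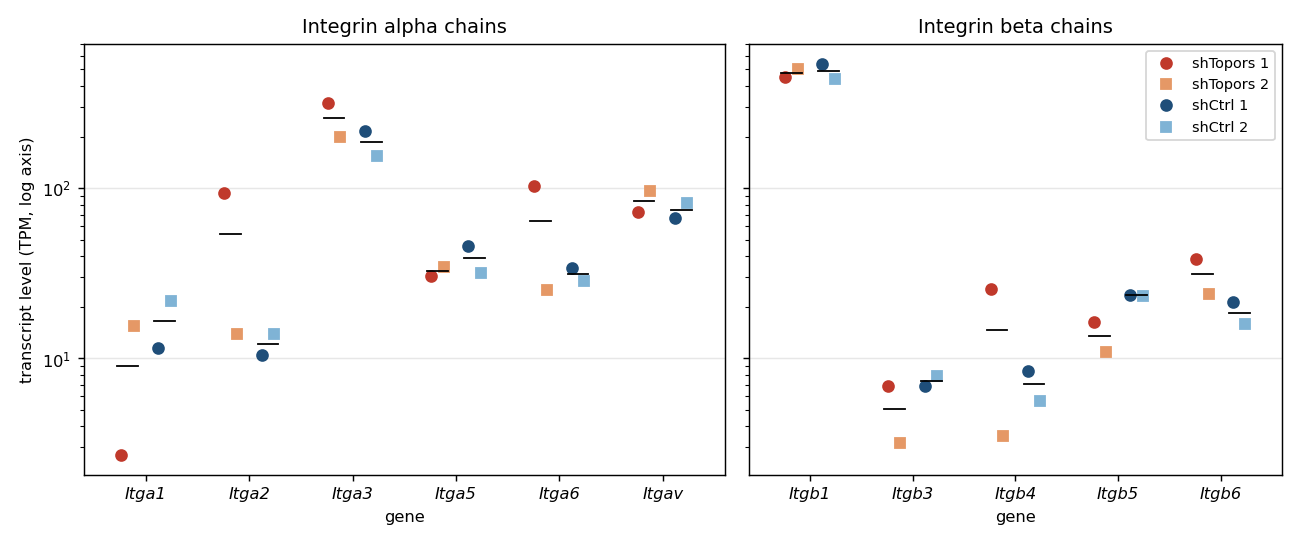
TPM on a log axis of the 11 integrin chains whose higher group mean was at least 5 TPM, with shTopors libraries left of shCtrl libraries and bars at the group means (n = 2). Itgb1 lies at 436 TPM or more in every library. Itga2, Itga6 and Itgb4 are highest in shTopors 1, and Itga1 is lowest there at 2.70 TPM. Itga6 and Itgb4 are lowest in shTopors 2.

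Among the alpha chains of laminin receptors, Itga3 was the most abundant alpha chain in every library. Itga3, which pairs with beta 1 to bind laminins with an alpha 5 or alpha 3 chain, was at 318 and 201 TPM in shTopors 1 and 2, against 217 and 156 TPM in shCtrl 1 and 2. The groups overlapped, because shTopors 2 lay between the controls. Itga6, the laminin receptor chain that can pair with beta 1 or beta 4, was at 104 and 25.4 TPM in shTopors 1 and 2, against 34.0 and 28.4 TPM in shCtrl 1 and 2. It was high in shTopors 1 and below both controls in shTopors 2, as was its partner Itgb4, and the TPM ratio of Itga6 to Itgb4 was 4.03 and 7.26 in shTopors 1 and 2, against 4.04 and 5.01 in shCtrl 1 and 2. Itga7, a laminin receptor chain best known in muscle, was at 5.23 and 0.652 TPM in shTopors 1 and 2, against 4.06 and 3.49 TPM in shCtrl 1 and 2. It was low in shTopors 2 alone. Mettl7b overlaps Itga7 on the opposite strand and ran the same way, at 9.15 and 0.508 TPM in shTopors 1 and 2, against 8.01 and 6.08 TPM in shCtrl 1 and 2. How the authors' counting treated strand is not stated in the labels, so the reads of these genes may not have been told apart.

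The collagen receptor chains Itga2 and Itga1 went opposite ways in shTopors 1. Itga2, which pairs with beta 1 in epithelial cells and platelets, was at 93.9 and 13.8 TPM in shTopors 1 and 2, against 10.4 and 13.9 TPM in shCtrl 1 and 2. Itga1, which also pairs with beta 1 and is known to prefer basement membrane collagen, was at 2.70 and 15.4 TPM in shTopors 1 and 2, against 11.5 and 21.6 TPM in shCtrl 1 and 2. Only shTopors 1 lay outside the range of the controls at either gene, and shTopors 2 lay within it at both. The ratio of Itga2 to Itga1 was 34.8 and 0.897 in shTopors 1 and 2, against 0.910 and 0.642 in shCtrl 1 and 2. The log2 difference was 1.53 (SE 0.76, adjusted p = 0.400 in limma) for Itga2 and -1.11 (SE 0.67, adjusted p = 0.467 in limma) for Itga1. Krt19 was high in shTopors 1 as well, by the values given above, and its part in these results was not tested. Itga10 and Itga11, collagen receptor chains of cartilage and mesenchymal cells, stayed under 1 TPM in every library, with a highest level of 0.409 TPM for Itga10.

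The 2 collagen receptor genes are neighbours on the minus strand of mouse chromosome 13 (mm10), with Itga2 at 114833081 to 114932100 and Itga1 at 114953096 to 115101964, and 20.995 kb and no protein-coding gene between them. Pelo lies within Itga1 on the same strand and was at 19.4 and 22.1 TPM in shTopors 1 and 2, against 20.3 and 17.9 TPM in shCtrl 1 and 2, without the low value of Itga1 in shTopors 1. Gm49395 also overlaps Itga1 on that strand, at 0.885 and 1.85 TPM in shTopors 1 and 2, against 3.37 and 4.05 TPM in shCtrl 1 and 2. It was lowest in shTopors 1, as Itga1 was. The promoter windows of Itga2 and Itga1 are shown because neighbours on 1 strand gave opposite values in 1 library. Each window holds the 250 bases before the gene's RefSeq start (GRCm38.p6) and is printed 5′ to 3′ on the gene's strand.
Itga2 (chr13:114932101-114932350, minus strand): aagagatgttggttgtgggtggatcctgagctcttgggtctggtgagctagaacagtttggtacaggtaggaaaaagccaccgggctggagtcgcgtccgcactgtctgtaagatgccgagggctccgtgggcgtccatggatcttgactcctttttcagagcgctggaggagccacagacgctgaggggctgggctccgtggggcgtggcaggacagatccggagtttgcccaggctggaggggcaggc
Itga1 (chr13:115101965-115102214, minus strand): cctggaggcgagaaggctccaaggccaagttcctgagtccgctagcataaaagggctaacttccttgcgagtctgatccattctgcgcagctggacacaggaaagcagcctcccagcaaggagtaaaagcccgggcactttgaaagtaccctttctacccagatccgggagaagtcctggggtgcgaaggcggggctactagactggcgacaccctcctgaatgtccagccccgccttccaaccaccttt
Capitals would mark the motifs searched on both strands: the GC box GGGCGG, the AP-1 site TGANTCA, the TEAD site GGAATG and the TATA box TATAAA. None of these letters was found in either window, and they were found in 32.7%, 6.75%, 12.6% and 12.4% of the 32851 windows of this length that were searched. The Itga2 window held 12 CpG dinucleotides and the Itga1 window 10, beside a median of 6 over all windows.

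The alpha chains of RGD receptors were close in all 4 libraries. Itgav, the alpha V chain that pairs with several beta chains, was at 72.3 and 96.5 TPM in shTopors 1 and 2, against 66.5 and 82.4 TPM in shCtrl 1 and 2. Itga5, the fibronectin receptor chain, was at 30.7 and 34.7 TPM in shTopors 1 and 2, against 46.1 and 31.8 TPM in shCtrl 1 and 2. The groups overlapped at both genes, and the log2 difference was 0.17 (95% interval -0.45 to 0.80) for Itgav and -0.23 (95% interval -0.90 to 0.44) for Itga5. Itga4, Itga8 and Itga9 were listed at 0 in all 4 libraries. The 12 alpha chains summed to 627 and 387 TPM in shTopors 1 and 2, against 390.3 and 338 TPM in shCtrl 1 and 2 (two-sided exact permutation test, p = 0.667). Itgb1 was below that sum in shTopors 1 and above it in each of the other libraries.

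Of 18 known integrin pairs among these chains, 10 had both chains at 1 TPM or more in every library. A pair is described by its less abundant chain, which says what transcript is present and not how much receptor is made. For each alpha chain paired with beta 1, the alpha chain was the less abundant in every library. By that measure alpha3beta1, a laminin receptor, came first in every library, with a mean of 259.5 ± 83.4 TPM in shTopors and 187 ± 43.5 TPM in shCtrl (SD, n = 2 each). AlphaVbeta1 came next in the shTopors 2, shCtrl 1 and shCtrl 2 libraries, at 96.5, 66.5 and 82.4 TPM. In shTopors 1 it was at 72.3 TPM, behind alpha6beta1 at 104 TPM and alpha2beta1 at 93.9 TPM. Alpha6beta4 was limited by Itgb4 in every library, and alphaVbeta3, alphaVbeta5 and alphaVbeta6 by their beta chains. Among the alpha V pairs other than with beta 1, alphaVbeta6 was the highest in both knockdown libraries, at 38.4 and 24.0 TPM, and alphaVbeta5 the highest in both controls, at 23.5 and 23.4 TPM. In the shCtrl 1 library alphaVbeta6 stood close to alphaVbeta5, at 21.4 TPM. The pairs with Itga4, Itga8, Itga9, Itga10, Itga11 or Itgb8 had a chain under 1 TPM in every library, and alpha7beta1 was under 1 TPM in shTopors 2 alone.

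Laminin alpha chains came almost wholly from Lama5, and Lama4 was low in both knockdown libraries. Lama4, whose chain is known from vessel walls and mesenchyme, was at 0.909 and 1.20 TPM in shTopors 1 and 2, against 6.06 and 6.59 TPM in shCtrl 1 and 2. Its mean was 6.01-fold lower in shTopors, at 1.05 ± 0.203 TPM against 6.32 ± 0.374 TPM in shCtrl (SD, n = 2 each). The log2 difference was -1.84 (95% interval -2.51 to -1.17), or -1.65 relative to the median of all genes, with an adjusted p = 0.110 in limma that did not pass. With shTopors 1, shTopors 2, shCtrl 1 or shCtrl 2 left out, the log2 difference of Lama4 was -1.74, -1.94, -1.89 or -1.79. Each such fit left 1 group without a spread of its own. Lama4 (mm10 chromosome 10, 38965515 to 39110188, plus strand) overlaps no other annotated gene. The stellate cell and fibroblast markers, which mark mesenchyme, summed to 0.333 and 1.01 TPM in shTopors 1 and 2, against 1.02 and 0.845 TPM in shCtrl 1 and 2. The endothelial markers summed to 0.174 and 0.234 TPM in shTopors 1 and 2, against 0.0689 and 0.142 TPM in shCtrl 1 and 2.

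Lama5, the alpha chain of most adult epithelial basement membranes, was at 129 and 31.1 TPM in shTopors 1 and 2, against 109 and 118 TPM in shCtrl 1 and 2. It was above both controls in shTopors 1 and below both in shTopors 2, and it made up 99.2% and 95.8% of laminin alpha TPM in those libraries, against 94.6% in both shCtrl 1 and shCtrl 2. Lama1, Lama2 and Lama3 were not tested, and none of them exceeded 0.127 TPM in any library. Lama3 encodes the alpha chain of the hemidesmosome laminin and was at 0.127 and 0.0700 TPM in shTopors 1 and 2, against 0.0399 and 0.0668 TPM in shCtrl 1 and 2.

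**Figure D4:**
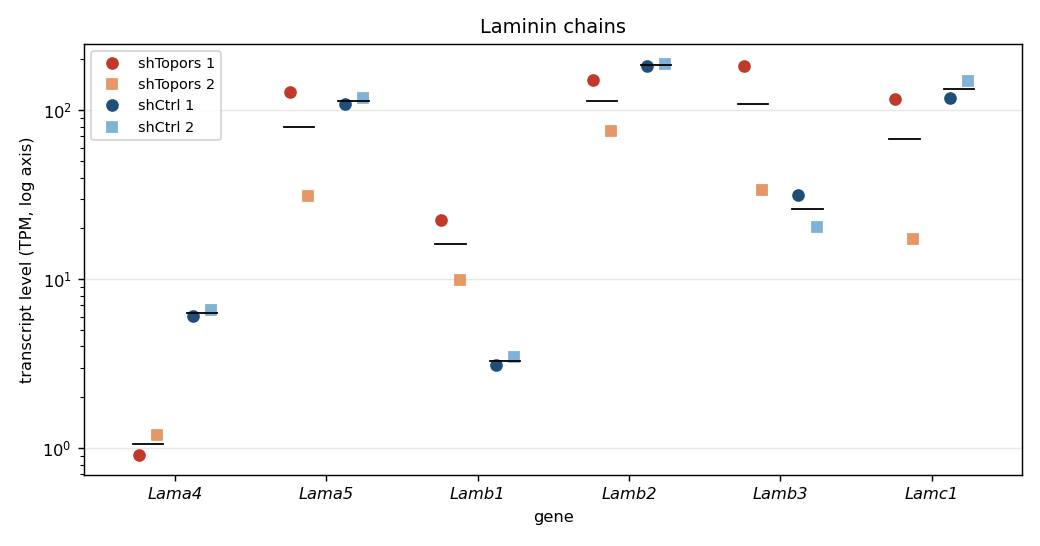
TPM on a log axis of the 6 laminin chains whose higher group mean was at least 5 TPM, with shTopors libraries left of shCtrl libraries and bars at the group means (n = 2). Lama4 lies lower and Lamb1 higher in both shTopors libraries than in both shCtrl libraries, while Lamc1 and Lama5 are low in shTopors 2 alone.

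Laminin beta chains differed in direction. Of the 3, 2 were higher and 1 lower without overlap, beside 14.6% and 35.2% of all tested genes. Lamb1, the beta chain of laminins found widely in embryo and adult, was at 22.5 and 9.92 TPM in shTopors 1 and 2, against 3.11 and 3.48 TPM in shCtrl 1 and 2. Its mean was 4.91-fold higher in shTopors, with a log2 difference of 1.90 (95% interval 0.95 to 2.85), or 2.08 relative to the median of all genes, and an adjusted p = 0.165 in limma that did not pass. With shTopors 1, shTopors 2, shCtrl 1 or shCtrl 2 left out, the log2 difference of Lamb1 was 1.35, 2.45, 1.84 or 1.96. Here too each fit left 1 group without a spread of its own. Lamb2, the beta chain known from kidney, muscle and vessel basement membranes, was at 152 and 75.3 TPM in shTopors 1 and 2, against 182 and 189 TPM in shCtrl 1 and 2. Both knockdown libraries lay below both controls, and the log2 difference was -0.79 (95% interval -1.60 to 0.02, adjusted p = 0.353 in limma). Lamb3, the beta chain of the hemidesmosome laminin, was at 183 and 33.8 TPM in shTopors 1 and 2, against 31.6 and 20.5 TPM in shCtrl 1 and 2. Its shTopors 2 level lay just above shCtrl 1, so the groups failed to overlap by little. The shTopors 1 level was 7.01 times the control mean and the shTopors 2 level 1.30 times it, and the log2 difference was 1.59 (95% interval -0.05 to 3.24, adjusted p = 0.353 in limma). G0s2 lies within the Lamb3 span on the opposite strand, at 46.5 and 30.6 TPM in shTopors 1 and 2, against 38.0 and 36.4 TPM in shCtrl 1 and 2.

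The make-up of the beta chains differed between these libraries, and the shares were not tested. Each share also depends on the levels of the other beta chains. Lamb2 was 42.6% and 63.2% of laminin beta TPM in shTopors 1 and 2, against 83.9% and 88.7% in shCtrl 1 and 2. Lamb1 was 6.30% and 8.34% in shTopors 1 and 2, against 1.44% and 1.64% in shCtrl 1 and 2, and Lamb3 was 51.1% and 28.4%, against 14.6% and 9.62%. The ratio of Lamb2 to Lamb1 was 6.75 and 7.59 in shTopors 1 and 2, against 58.3 and 54.2 in shCtrl 1 and 2. That ratio was close between the knockdown libraries, and both genes were higher in shTopors 1, by 2.02-fold (Lamb2) and 2.27-fold (Lamb1). The ratio of Lamb2 to Lamb3 was 0.832 and 2.23 in shTopors 1 and 2, against 5.74 and 9.22 in shCtrl 1 and 2.

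The promoter windows of Lamb1 and Itgb5 are shown because these genes, on opposite sides of the controls in both knockdown libraries, each had a single RefSeq window. Windows were found for 20 of the 30 members. Each again holds the 250 bases before the RefSeq start (GRCm38.p6), 5′ to 3′ on the gene's strand, with the GC box GGGCGG, read on either strand, in capitals.
Lamb1 (chr12:31265043-31265292, plus strand): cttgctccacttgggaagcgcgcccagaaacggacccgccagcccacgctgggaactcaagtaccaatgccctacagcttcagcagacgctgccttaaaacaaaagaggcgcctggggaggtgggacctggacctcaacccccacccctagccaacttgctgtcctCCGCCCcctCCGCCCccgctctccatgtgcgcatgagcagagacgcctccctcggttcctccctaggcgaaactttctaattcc
Itgb5 (chr16:33829415-33829664, plus strand): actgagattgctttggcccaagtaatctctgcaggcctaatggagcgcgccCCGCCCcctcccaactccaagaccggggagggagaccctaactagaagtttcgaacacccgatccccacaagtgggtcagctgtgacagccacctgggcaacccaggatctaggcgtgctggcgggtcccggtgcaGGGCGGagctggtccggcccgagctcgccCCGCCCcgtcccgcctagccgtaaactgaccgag
The Lamb1 window held 2 GC boxes and the Itgb5 window 3, and neither held the AP-1, TEAD or TATA letters. They held 14 and 18 CpG dinucleotides, beside the median of 6 over all windows. The GC box letters were met in 32.7% of all windows searched, and a match describes the window without showing that a factor binds there.

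The laminin gamma chain Lamc1 was low in shTopors 2 alone. Lamc1, the gamma chain of most laminins, was at 117 and 17.2 TPM in shTopors 1 and 2, against 118 and 149 TPM in shCtrl 1 and 2. Its shTopors 1 level lay just below shCtrl 1, so the groups failed to overlap by little, and the log2 difference was -1.52 (95% interval -3.30 to 0.25, adjusted p = 0.398 in limma). Lamc3 was at 0.653 and 0.208 TPM in shTopors 1 and 2, against 0.722 and 0.600 TPM in shCtrl 1 and 2.

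Summed over the 10 chains, laminin transcripts were at 605 and 169 TPM in shTopors 1 and 2, against 451 and 487 TPM in shCtrl 1 and 2. The knockdown libraries lay on opposite sides of both controls, and a two-sided exact permutation test gave p = 1. The largest shares of the gap between the knockdown libraries came from Lamb3, Lamc1, Lama5 and Lamb2, each higher in shTopors 1 by its values above.

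Of 13 laminin trimers considered, laminin-511 and laminin-521 had all 3 chains at 1 TPM or more in every library. The digits name the alpha, beta and gamma chains. The least abundant chain of laminin-521 was at 117 and 17.2 TPM in shTopors 1 and 2, against 109 and 118 TPM in shCtrl 1 and 2, and it was Lamc1 in the knockdown libraries and Lama5 in the controls. Laminin-511, an epithelial laminin bound by alpha3beta1 and alpha6beta1, was limited by Lamb1 in every library, at 22.5 and 9.92 TPM in shTopors 1 and 2, against 3.11 and 3.48 TPM in shCtrl 1 and 2. Laminin-411 and laminin-421 were limited by Lama4 in the knockdown libraries, at 0.909 and 1.20 TPM in shTopors 1 and 2. In shCtrl 1 and 2, laminin-411 was limited by Lamb1 at 3.11 and 3.48 TPM and laminin-421 by Lama4 at 6.06 and 6.59 TPM. The trimers with Lama1, Lama2, Lama3 or Lamc3 were under 1 TPM in every library.

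**Figure D5:**
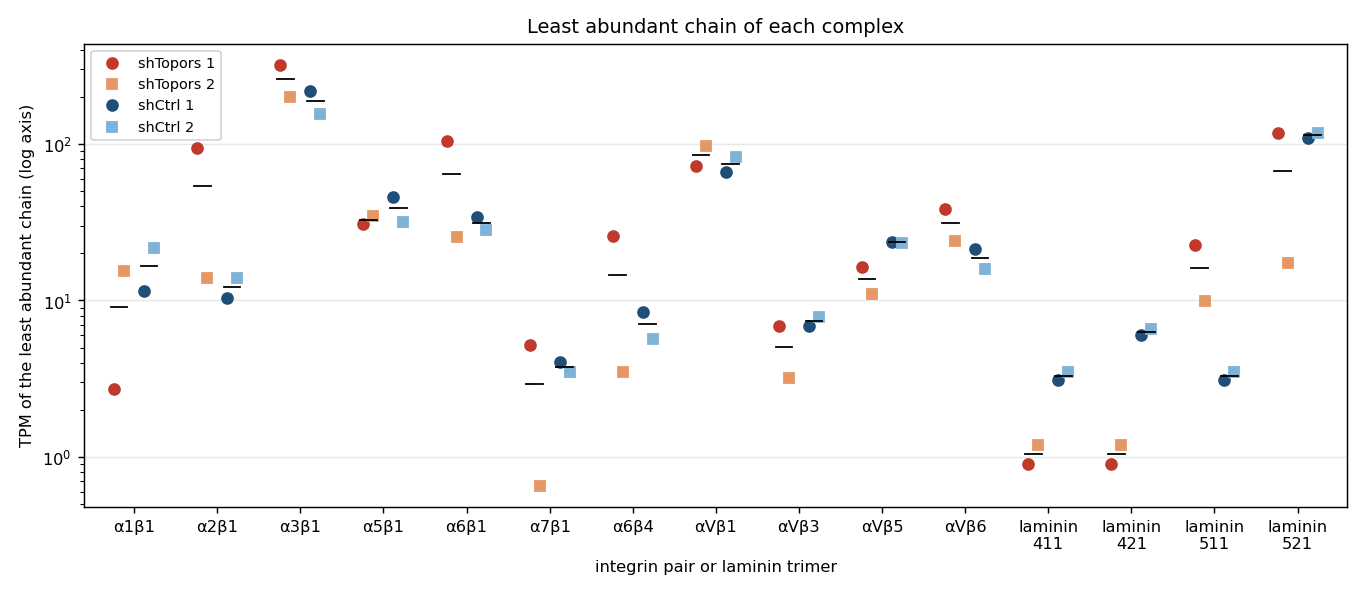
TPM on a log axis of the least abundant chain of 11 integrin pairs and 4 laminin trimers in each library, with shTopors left of shCtrl and bars at the group means (n = 2). Laminin-511 lies higher and laminin-411 and laminin-421 lower in both shTopors libraries than in both controls, and alpha2beta1 and alpha6beta4 stand out in shTopors 1.

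The tested members share long transcripts and some share their locus with other genes. The longest annotated transcript ran from 3282 to 11388 bases, and all 18 were longer than the median of all tested genes. No member was called before or after length and GC trends were taken out, and the part of transcript length was not tested. Of the 18, 9 overlap another annotated gene and 7 overlap one on the opposite strand.

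Other genes of matrix adhesion, 107 in 8 lists, held no call either. Of these, 83 were tested, and at an unadjusted p under 0.05 4 were higher and 15 lower in shTopors, beside 3.98% and 10.7% of all tested genes. The 2 groups did not overlap at 10.8% (higher) and 41.0% (lower) of the 83, beside 14.6% and 35.2% of all tested genes, and their median log2 difference was -0.25, beside -0.18. Without shTopors 1 the fit called 3 higher and 15 lower, and without shTopors 2 it called 6 higher and 17 lower. Of all 13509 genes, 1.82% and 6.67% were called higher and lower in the first of these fits, and 5.09% and 10.9% in the other.

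Dag1, the dystroglycan gene of a laminin receptor that is no integrin, was at 69.5 and 75.6 TPM in shTopors 1 and 2, against 160 and 172 TPM in shCtrl 1 and 2 (adjusted p = 0.137 in limma). Both knockdown libraries lay below both controls. Of the 7 other laminin receptors tested, 1 was higher without overlap and 4 lower, beside 14.6% and 35.2% of all tested genes. Sdc2, a syndecan, was at 15.5 and 30.8 TPM in shTopors 1 and 2, against 39.1 and 61.4 TPM in shCtrl 1 and 2. Of 13 other basement membrane components tested, 2 were higher without overlap and 5 lower, beside the same shares of all tested genes. Ntn4, which encodes netrin-4, a protein that binds laminin gamma 1, was at 7.67 and 13.2 TPM in shTopors 1 and 2, against 34.3 and 40.1 TPM in shCtrl 1 and 2 (adjusted p = 0.130 in limma). Sparc, a collagen-binding protein of basement membranes, was at 161 and 107 TPM in shTopors 1 and 2, against 264 and 275 TPM in shCtrl 1 and 2. Both genes were lower in each knockdown library than in each control. Nid1, which encodes nidogen-1, the link between laminin and collagen IV, was at 47.1 and 16.7 TPM in shTopors 1 and 2, against 8.89 and 6.69 TPM in shCtrl 1 and 2 (adjusted p = 0.219 in limma, chosen after its values were seen). It was higher in each knockdown library, and higher in shTopors 1 than in shTopors 2, as was Lamb1.

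Of 13 other integrin ligands tested, 1 was higher without overlap and 4 lower, beside 14.6% and 35.2% of all tested genes. Their median log2 difference was -0.45, beside -0.18 over all tested genes. Cyr61, a matricellular ligand of several integrins, was at 43.5 and 51.3 TPM in shTopors 1 and 2, against 121 and 193 TPM in shCtrl 1 and 2 (adjusted p = 0.130 in limma). Ctgf, of the same family, was at 1020 and 740 TPM in shTopors 1 and 2, against 1709 and 1597 TPM in shCtrl 1 and 2 (adjusted p = 0.178 in limma). Both were lower in each knockdown library. Vtn, the vitronectin gene and so a ligand of alphaVbeta3 and alphaVbeta5, was at 0.199 and 9.04 TPM in shTopors 1 and 2, against 28.9 and 68.9 TPM in shCtrl 1 and 2 (chosen after its values were seen).

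Inside the cell, 20 activators and scaffold genes were tested. Of these, 2 were higher and 8 lower without overlap, beside 14.6% and 35.2% of all tested genes. Their median log2 difference was -0.27, beside -0.18 over all tested genes. Zyx, the zyxin gene of focal adhesions, was at 18.2 and 26.1 TPM in shTopors 1 and 2, against 71.8 and 43.8 TPM in shCtrl 1 and 2, and Tns2, a tensin gene, was at 11.1 and 7.08 TPM, against 21.7 and 17.9 TPM. Of 14 adhesion kinases and adaptors tested, 1 was higher and 7 lower without overlap, beside the same shares of all tested genes. Ptk2b, a kinase related to focal adhesion kinase, was at 50.1 and 41.1 TPM in shTopors 1 and 2, against 99.4 and 87.7 TPM in shCtrl 1 and 2, and Dock1, a Rac activator, was at 71.5 and 68.4 TPM, against 86.7 and 115 TPM. Of 13 integrin-binding regulators tested, 2 were higher and 4 lower without overlap, again beside those shares of all tested genes. The tetraspanin genes Cd9 and Cd82 differed in direction, with Cd9 at 191 and 96.3 TPM in shTopors 1 and 2, against 55.2 and 69.5 TPM in shCtrl 1 and 2, and Cd82 at 24.9 and 31.6 TPM, against 57.0 and 59.8 TPM. Of the hemidesmosome partners, Plec, the plectin gene, was at 241 and 89.2 TPM in shTopors 1 and 2, against 191 and 145 TPM in shCtrl 1 and 2, on the same sides of the controls as Itgb4 and Itga6, and Dst was at 150 and 145 TPM, against 176 and 158 TPM. None of these 8 genes passed over all genes tested, and the smallest adjusted p among them in limma was 0.187, for Ptk2b. Col17a1, Krt5 and Krt14, the other hemidesmosome partners listed, were not tested and did not exceed 0.0549 TPM in any library.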

How the data were processed

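RNA of 4 AML12 libraries, 2 per group, was depleted of ribosomal RNA and made into strand-specific libraries, per the labels' protocols. The authors deposited TPM, 1 value for each gene in each library. Build mm10 and the tools StringTie, HTSeq, HISAT2 and DESeq2 are named, per the submitters' processing notes, without versions or roles. Which program wrote the TPM, and with what strand setting, is not given. TPM keeps no depth.

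Values of 3 identifiers on more than 1 row were summed. GENCODE M21 (mm10) gave coordinates, transcript lengths and GC content, and RefSeq GRCm38.p6 gave promoter windows. Genes averaging 1 TPM or more were tested as log2(TPM + 1), which understates changes of low genes, by limma (version 3.58.1, R 4.3.3), using its mean-variance trend and the contrast shTopors minus shCtrl. P-values were adjusted over 13509 genes and called under 0.05. Sums were compared by a two-sided exact permutation test over libraries. The fit was tested on simulated data. Members whose higher group mean was at least 5 TPM are given by library, the 3 highest of the others in each chain class are named, and each other list is given by its 2 genes with the smallest p. The members, lists and complexes were chosen with earlier results of these data known, and 1 gene that matched is not reported here. Figures and tables were made in Python 3.11.15.

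Alternatives were other pseudocounts, filters, scalings and variance models, a trend on length and GC removed, each library omitted in turn, and a replicate block.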

Additional observations from a re-analysis of the deposited data

How the results depend on the processing

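No integrin or laminin gene was called under any of the 11 alternatives that kept all libraries, with a smallest adjusted p in limma between 0.0809 and 0.375. With 1 library left out, from 0 to 7 were called higher and from 0 to 6 lower. Over all genes, 1 was higher and 4 lower. These counts were 0 and 1 after rescaling over protein-coding nuclear genes, after quantile normalization, after median-of-ratios scaling and when genes had to average 5 TPM, and 0 and 0 with no filter on low values. They ranged from 0 to 687 and from 0 to 1479 with 1 library left out. With the replicate number as a block the counts were 6 and 27, and the call on Vtn was gained but none on a member. Same-numbered libraries correlated at 0.199 in their deviations from the group means, over 13509 genes, and with 2 pairs the numbers were not taken to pair the libraries. The Topors difference passed with the block (adjusted p = 0.0497 in limma).

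The log2 ratio of summed integrin beta chains was -0.01, and 0.17 after median-of-ratios scaling. With 1 library left out it ranged from -0.15 to 0.14, that of alpha chains from 0.09 to 0.79, and that of laminin chains from -1.47 to 0.37 around -0.28. The log2 difference of Itgb1 was 0.16 after median-of-ratios scaling. Leaving out 1 library turned the sign for 7 genes, whose values ranged from -0.49 to 0.035 for Itga5, -0.28 to 1.71 for Itga6, -1.53 to 0.39 for Itga7, -0.033 to 0.38 for Itgav, -0.19 to 0.12 for Itgb1, -0.82 to 1.76 for Itgb4 and -1.84 to 0.18 for Lama5. The cause was not tested. Depth is unknown, so low chains could not be told from absent ones.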
